A study of Caenorhabditis elegans with 2 samples.

Results

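Histone genes encode the proteins around which DNA is wound, and 73 of them in Caenorhabditis elegans were examined for ChIP-seq peaks of a tagged C06A6.2 protein. A gene was a member if it was protein-coding and its Ensembl name began with his-, and htz-1 was added to these, which gave 73 of 19973 nuclear protein-coding genes. Genes whose annotated starts lay within 1000 bp of each other were counted once as a locus, so the 73 genes formed 42 loci. Only histone genes were joined in these. The background joined all protein-coding genes by the same distance, which gave 17273 loci, and there a histone gene can share a locus with other genes. The naming rule used no value of the ChIP-seq data, but the members and lists were chosen with earlier results of these data known.

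Chromatin came from whole young adults of strain OP810, aged 67 hours and synchronised by starving L1 larvae that hatched after bleaching. The strain carried the transgene wgIs810, in which C06A6.2 was joined to TY1, EGFP and 3xFLAG, together with unc-119(+), and it bore the unc-119 (tm4063) mutation. The tagged protein was precipitated with an antibody to GFP, per the labels, although another label field gave the antibody as C06A6.2. The 2 biological replicates formed a single group, so no test between groups was possible. No untagged strain and no input library was analysed here. Depth is unknown, with the transgene's promoter, the read length and the number of reads not given in the sources used here. Whole worms mix tissues, and binding in few cells cannot be told apart from weak binding in many.

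Nucleosomes are built from histones H2A, H2B, H3 and H4, and linker histone H1 sits where DNA enters and leaves them. Most animal core histone genes are replication-dependent, which means that they are transcribed mainly while DNA is copied, and their mRNAs end in a stem-loop in place of a poly(A) tail. Variant histones such as H2A.Z and H3.3 are made throughout the cell cycle and exchanged into chromatin at particular places. In C. elegans the core histone genes lie in repeated groups whose copies are nearly identical.

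The annotation and the genome sequence separated the members into 2 kinds. There were 61 core genes, with 16 for H2A, 15 for H2B, 15 for H3 and 15 for H4, and none had an intron in its coding part. Proteins of the core H2A, H3 and H4 genes were 100% identical within their type, and the H2B proteins were 97.6% to 100% identical to the reference copy. The other 12 genes were placed in a class called variants here, which also took in intron-bearing genes for core-type proteins and short gene models. They were htz-1 (H2A.Z), his-24 (linker histone H1), the H3.3-type genes his-69, his-70, his-71, his-72 and his-74, the intron-bearing genes his-35 (H2A), his-41 (H2B) and his-37 (H4), and the short gene models his-39 and his-73. The his-37 protein was 100% identical to core H4, his-35 was 99.2% identical to core H2A and his-41 was 97.6% identical to core H2B. A stem-loop of a 6-bp stem and a 4-base loop followed the stop codon within 150 bp in 57 of 61 core genes and in 0 of 12 variants. It began 32 to 58 bases after the stop. The core genes without this exact form were his-19, his-47, his-53 and his-68. The sequences below show the form that set the core genes apart, with the whole stem-loop in capitals.
his-1, same in 53 genes: GGCCCTCTTTAGGGCC
his-20, same in 4 genes: GGCCCTCTTAAGGGCC

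Of the 42 loci, 30 were replication-dependent clusters, each a pair of core genes transcribed away from each other. These comprised 14 pairs of H3 with H4, 15 pairs of H2A with H2B, and the pair his-67/his-68 of H4 with H2A. Between the annotated starts of a pair lay 234 to 321 bp in H3 with H4 pairs (median 255 bp) and 227 to 327 bp in H2A with H2B pairs (median 292 bp), the starts themselves not counted. One core gene, his-42 (H3), stood alone, and the variants made up 11 loci, with his-35/his-41 as their only pair. By chromosome, V held 27 of the genes, IV held 23, II held 14, X held 4, III held 3 and I held 2. In 66 of 73 genes the annotated start was the first coding base, so distances are mostly to the start codon rather than to a mapped start of transcription.

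Peaks reached 5 of the 42 histone loci. The conservative list holds 1346 peaks that passed an IDR threshold. The IDR, or irreproducible discovery rate, is low for peaks that rank alike in repeated measurements. A gene or locus was counted when the deposited summit, the highest point of a peak, lay within 500 bp of an annotated start. This held for 8 of 73 histone genes (11%, 95% Wilson interval 5.66% to 20.2%), against 3.28% of all protein-coding genes. By locus it held for 5 of 42 (11.9%, 5.19% to 25%), against 3.02% of all protein-coding loci. The intervals cover counting error only, and neighbouring or copied genes are not independent. The 5 loci were his-37, htz-1, the intron-bearing pair his-35/his-41, and the H3 with H4 pairs his-5/his-6 and his-17/his-18. Thus 2 of 30 replication-dependent clusters had a conservative peak (6.67%, 1.85% to 21.3%), and 3 of 12 isolated and variant loci did (25%, 8.89% to 53.2%). The intervals of these shares overlap. The signal column holds the caller's value per peak, with its scale not given in the sources used here, so ranks within a list are given beside it, and signals set side by side between replicates are values of 2 separately made lists.

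Sequence from the 5 loci, and from a near-identical pair without a ranked summit, is shown to let the promoters be compared. Coordinates are in ce11, which is WBcel235, and the strand is given for each. For pairs, the bases between the annotated starts are printed, with the H3 gene to the left and the H4 gene to the right. The pair his-35/his-41 has the H2A gene to the left and the H2B gene to the right. For his-37 and htz-1 the 100 bp on either side of the conservative summit are printed. Capitals mark the words CCCCGCAG and TATAAA on either strand, so TTTATA is TATAAA read on the other strand. Both words were picked after the sequences had been seen.
his-5/his-6, chrV:8534978-8535213, plus strand, conservative peak: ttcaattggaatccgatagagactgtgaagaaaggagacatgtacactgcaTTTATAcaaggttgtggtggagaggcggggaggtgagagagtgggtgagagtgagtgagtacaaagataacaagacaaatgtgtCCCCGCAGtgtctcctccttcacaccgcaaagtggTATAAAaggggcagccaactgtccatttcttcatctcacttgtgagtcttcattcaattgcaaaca
his-17/his-18, chrV:8897993-8898227, plus strand, conservative peak: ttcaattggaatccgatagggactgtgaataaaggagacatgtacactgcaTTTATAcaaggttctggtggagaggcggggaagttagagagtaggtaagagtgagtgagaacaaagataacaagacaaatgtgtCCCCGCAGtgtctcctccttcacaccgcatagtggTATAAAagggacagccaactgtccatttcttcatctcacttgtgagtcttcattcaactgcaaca
his-49/his-50, chrV:8847705-8847942, minus strand, no ranked summit: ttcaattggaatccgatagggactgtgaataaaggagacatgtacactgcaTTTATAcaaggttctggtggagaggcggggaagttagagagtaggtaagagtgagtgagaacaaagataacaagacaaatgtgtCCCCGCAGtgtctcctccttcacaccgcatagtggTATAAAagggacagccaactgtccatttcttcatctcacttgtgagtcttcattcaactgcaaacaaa
his-35/his-41, chrV:9545289-9545535, plus strand, conservative peak: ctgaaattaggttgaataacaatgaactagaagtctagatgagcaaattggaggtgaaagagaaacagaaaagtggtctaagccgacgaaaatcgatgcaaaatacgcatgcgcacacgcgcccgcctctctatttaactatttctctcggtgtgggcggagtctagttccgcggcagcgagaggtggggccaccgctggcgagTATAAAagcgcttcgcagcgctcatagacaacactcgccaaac
his-37, chrV:9546925-9547125, plus strand, conservative peak: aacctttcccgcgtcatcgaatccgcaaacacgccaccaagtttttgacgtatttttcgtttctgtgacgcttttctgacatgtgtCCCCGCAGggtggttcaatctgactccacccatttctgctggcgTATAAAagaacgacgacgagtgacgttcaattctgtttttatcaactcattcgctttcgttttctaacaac
htz-1, chrIV:4445809-4446009, plus strand, conservative peak: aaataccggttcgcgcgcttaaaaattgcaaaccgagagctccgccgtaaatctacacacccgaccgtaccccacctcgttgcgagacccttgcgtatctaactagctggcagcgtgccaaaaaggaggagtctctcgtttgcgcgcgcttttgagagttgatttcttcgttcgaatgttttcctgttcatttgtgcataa

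The strongest histone peak was at his-37, the gene on chromosome V that encodes H4 and carries an intron. Its peak spanned chrV:9546901-9547149, with the summit 80 bp upstream of the annotated start, and ranked 49 of 1346 in the conservative list with a signal of 344.7. Replicate 1 gave a signal of 170.8 (rank 42) and replicate 2 gave 181.5 (rank 58), with summits 23 bp apart. The peak was in the thresholded list of each replicate. Both replicates therefore placed his-37 among their highest peaks, at nearly the same base. The signals of the joint list and of a single replicate are on different scales, and ranks are within lists of different lengths.

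The neighbouring pair his-35/his-41, which encodes H2A and H2B, had a weaker peak. Its annotated start for his-41 was 1569 bp from that of his-37. The peak spanned chrV:9545289-9545608, and its summit lay between the paired genes, 87 bp upstream of his-41. The signal was 72.99 (rank 938), below the list's median of 87.36. Replicate 1 gave 37.79 and replicate 2 gave 37.47, with summits 33 bp apart, and neither replicate's own thresholded list held the peak. Thus his-35, his-41 and his-37 had a conservative summit in reach, from 2 separate peaks. The intron-bearing H3.3-type genes his-71, his-72 and his-74, whose proteins were 88.2% to 94.1% identical to core H3, had none.

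The gene htz-1 encodes H2A.Z, a variant deposited at promoters. Its peak spanned chrIV:4445851-4445981 with a signal of 162.2 (rank 203), and its summit was 307 bp upstream of the annotated start. Replicate 1 gave 54.72 (rank 424) and replicate 2 gave 111.2 (rank 140), a ratio of 2.03, with summits 51 bp apart. Both replicates' thresholded lists held it. The start of wapl-1, a cohesin release factor gene, was closer to this summit, at 169 bp, so the peak cannot be assigned to htz-1 alone. No other annotated gene had its 5′ end within 500 bp of the remaining 4 summits.

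Among the replication-dependent clusters the strongest peak was at his-5/his-6, a divergent pair for H4 and H3. The peak spanned chrV:8534896-8535215, with its summit between the genes, 79 bp upstream of his-6, and its signal was 94.85 (rank 574). Replicate 1 gave 29.88 (rank 1766, IDR score 304) and replicate 2 gave 70.79 (rank 326, IDR score 1000), a ratio of 2.37. The summits were 11 bp apart. IDR scores run up to 1000, higher where the IDR is lower, and conservative peaks had at least 830. The thresholded list of replicate 2 held this peak and that of replicate 1 did not.

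The pair his-17/his-18, also H3 with H4, had a peak at chrV:8898069-8898388 with a signal of 74.04 (rank 916). The summit was 1 bp inside his-18. Replicate 1 gave 34.23 and replicate 2 gave 35.31, with summits 17 bp apart, and neither thresholded list of a single replicate held it. This pair is the last of an 8-gene array in which nearly every base is repeated elsewhere. Within 100 bp of its summit, 22.9% of 50-base words (50-mers) occurred once in the genome, against 98.01% at his-5/his-6 and 100% at the other 3 summits. On the side of his-18 that leaves the array, 36.7% of 50-mers were unique, against 19.6% between the starts and 9.98% on the side of his-17.

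The printed sequences show how alike the pairs with and without a summit are. Between the annotated starts, his-17/his-18 was 98.3% identical to his-49/his-50, with a shared run of 233 bases, and his-5/his-6 was 94.5% identical to his-49/his-50. The pair his-27/his-28 at the other end of the same array was 100% identical to his-49/his-50 over 238 bases. Neither his-49/his-50 nor his-27/his-28 had a ranked summit in either replicate, and 0% of the 50-mers at each was unique. Reads from such copies cannot be placed by sequence alone, and the authors' treatment of them was not given in the sources used here. Whether the protein bound the copies was therefore not measured by these peak lists. The same limit holds for the peak at his-17/his-18, where 22.9% of 50-mers within 100 bp of the summit were unique. That peak cannot be assigned to his-17/his-18 alone.

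Below the threshold, the ranked lists hold 31655 peaks for replicate 1 and 28508 for replicate 2, and they reached more histone loci. A ranked summit was in reach in replicate 1 at 19 of 42 loci (45.2%, 31.2% to 60.1%), against 36.6% of all protein-coding loci. In replicate 2 it was at 16 of 42 (38.1%, 25% to 53.2%), against 34.2%. Both of these shares have intervals that hold the background. Every locus of replicate 2 was also one of replicate 1, so the same 16 of 42 had one in both, against 20.4% of all protein-coding loci. Most histone loci held 2 genes, and 33.5% of all 2-gene loci with 90% or more unique 50-mers had one in both. In both replicates there was a ranked summit at 10 of 30 replication-dependent clusters (33.3%, 19.2% to 51.2%) and at 6 of 12 isolated and variant loci (50%, 25.4% to 74.6%). At 23 loci (54.8%, 39.9% to 68.8%) neither replicate had one, of which 18 were replication-dependent clusters. The share of all protein-coding loci with none in either replicate was not counted, so this is not read as particular to histone loci. By gene, 27 of 73 had a ranked summit in both replicates (37%, 26.8% to 48.5%), against 19.5% of all protein-coding genes.

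**Figure D1:**
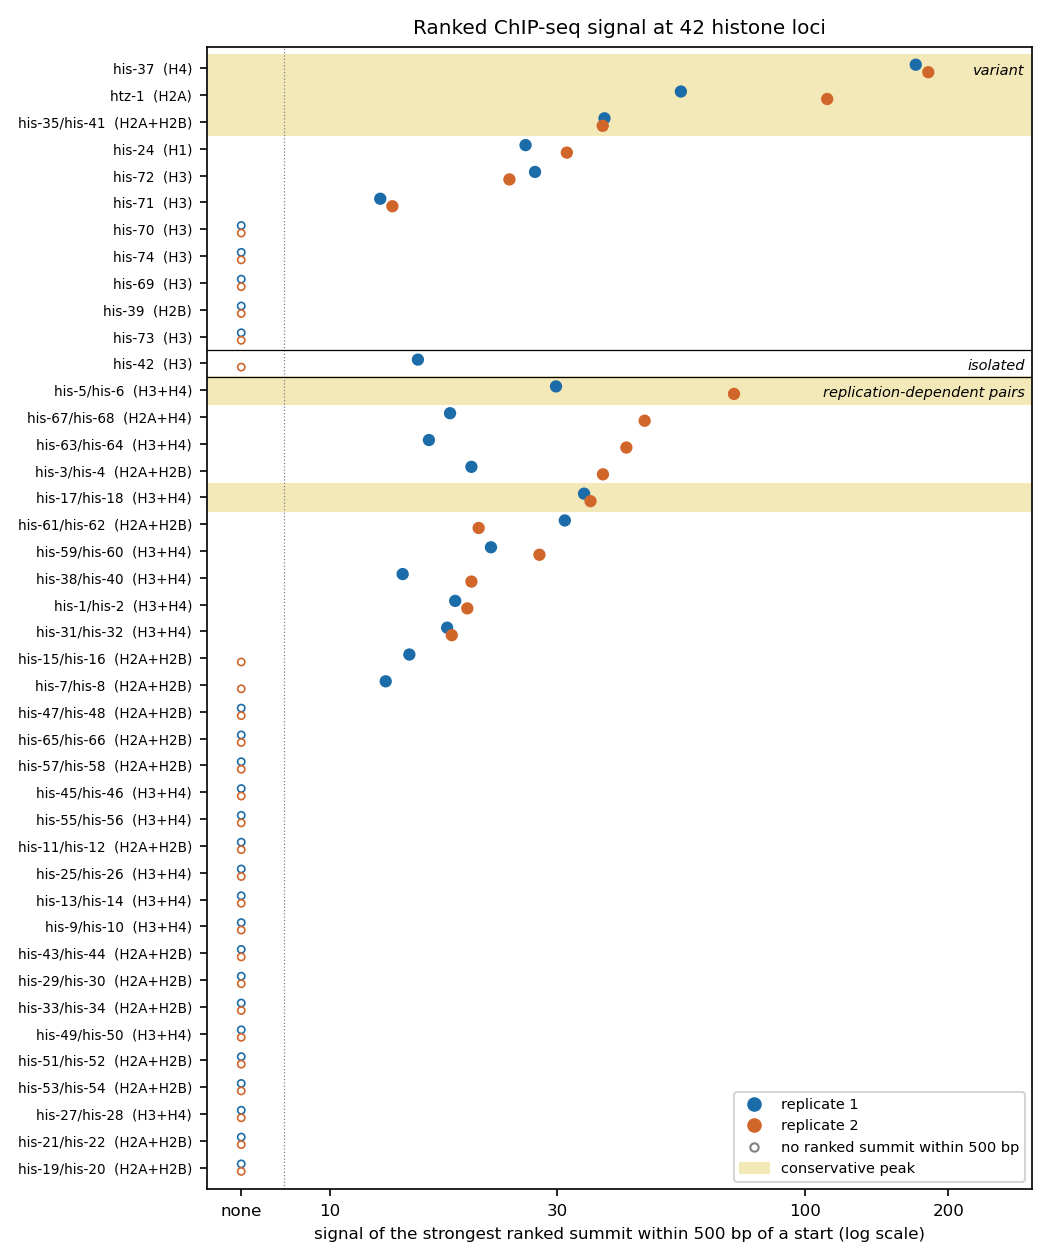
Signal of the strongest ranked summit within 500 bp of an annotated start at each of the 42 histone loci, on a log axis, for replicate 1 and replicate 2. Open circles mark no ranked summit and shading marks the 5 loci with a conservative peak. The signals of his-37, 170.8 and 181.5, stand above all others, and 18 of the 30 replication-dependent pairs have no ranked summit in either replicate. The share of all protein-coding loci with none was not counted.

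Where both replicates had a ranked summit, the 16 histone loci had signals of 12.75 to 170.8 in replicate 1 (median 23.79), against a median of 18.73 over the 3532 protein-coding loci counted the same way. In replicate 2 they had 13.52 to 181.5 (median 33.4), against a median of 20.6. The strongest summits of the replicates were within 100 bp of each other at 14 of 16 histone loci (87.5%), against 48.8% of the 3532 loci. The 42 histone loci had windows of 1001 to 1887 bp (median 1255 bp), against a median of 1001 bp over all 17273 protein-coding loci. All loci of 2 genes had a median of 1737 bp, wider than the histone loci. Windows of the 3532 loci alone were not summarised, so the shares within 100 bp are not matched for window size. Loci with several summits can differ in which is strongest, and the part this played was not tested. The histone loci with summits further apart were his-72, at 1229 bp, and his-71, at 903 bp.

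Replicate 2 had the higher signal at 13 of 16 histone loci (81.2%), against 62% of all loci counted the same way. The ratio of replicate 2 to replicate 1 ran from 0.659 to 2.6 at histone loci (median 1.14), against a median of 1.11 over all such loci. Among the 10 replication-dependent pairs its median was 1.33. The ratio is of deposited signals whose scaling is not known, and with 1 group of 2 samples it has no test.

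Members outside the conservative list are named in what follows after their values had been seen. The strongest in replicate 2 was his-67/his-68 on chromosome I, the pair of H4 with H2A, with 45.91 in replicate 2 and 17.88 in replicate 1. Its IDR score in replicate 2 was 838 and that replicate's thresholded list held it. In the joint list the score was 178. The H3 with H4 pair his-63/his-64 on chromosome IV followed, with 42.02 in replicate 2 and 16.14 in replicate 1, a ratio of 2.6 and a joint score of 84. The H2A with H2B pair his-3/his-4 had 37.51 in replicate 2 and 19.83 in replicate 1. At these 3 pairs the replicates placed the summit within 21 to 48 bp of each other, while their signals were 1.89 to 2.6 times apart.

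The other 5 replication-dependent pairs seen in both replicates had lower signals in replicate 2 than these 3. At his-61/his-62 (H2A with H2B) the order was turned, with 31.18 in replicate 1 and 20.54 in replicate 2. At his-59/his-60 the signals were 21.8 in replicate 1 and 27.57 in replicate 2. The pairs his-31/his-32, his-1/his-2 and his-38/his-40 had 14.21 to 18.33 in replicate 1 and 18.03 to 19.83 in replicate 2. Replicate 1 alone had a ranked summit at his-15/his-16 (14.68), his-7/his-8 (13.09) and the isolated gene his-42 (15.3). These 3 values were under the whole list's median of 15.32.

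Of the variants, his-24, the H1 gene, had signals of 25.78 in replicate 1 and 31.49 in replicate 2, with summits 2 bp apart. Its IDR score of 696 in the joint list was the highest of any histone locus outside the conservative list. The H3.3 gene his-72 had 26.99 in replicate 1 and 23.84 in replicate 2, but from summits at different places. The H3.3 gene his-71 had 12.75 and 13.52 in replicates 1 and 2. No ranked summit was in reach of the H3.3-type genes his-69, his-70 and his-74 or of the short models his-39 and his-73 in either replicate. Their windows were 86.8% to 100% unique, so most of their sequence occurred once in the genome.

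Where pairs had a ranked summit, it did not always lie between the genes. The strongest summit was between the annotated starts in 6 of 12 replication-dependent pairs in replicate 1 and in 8 of 10 in replicate 2. In the others it lay over or beside a gene body.

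The share of a locus that is unique in the genome moved together with whether any summit was listed there. Over the windows of 500 bp around starts, the replication-dependent clusters had a median of 9.2% unique 50-mers (range 0% to 96.1%) and the isolated and variant loci had a median of 100% (70.7% to 100%). All protein-coding loci had a median of 100%. The 16 histone loci with a ranked summit in both replicates had a median of 94.4% (22.6% to 100%), and the 23 with none had 0.942% (0% to 100%). With 36-mers these medians were 85.1% and 0.942%.

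**Figure D2:**
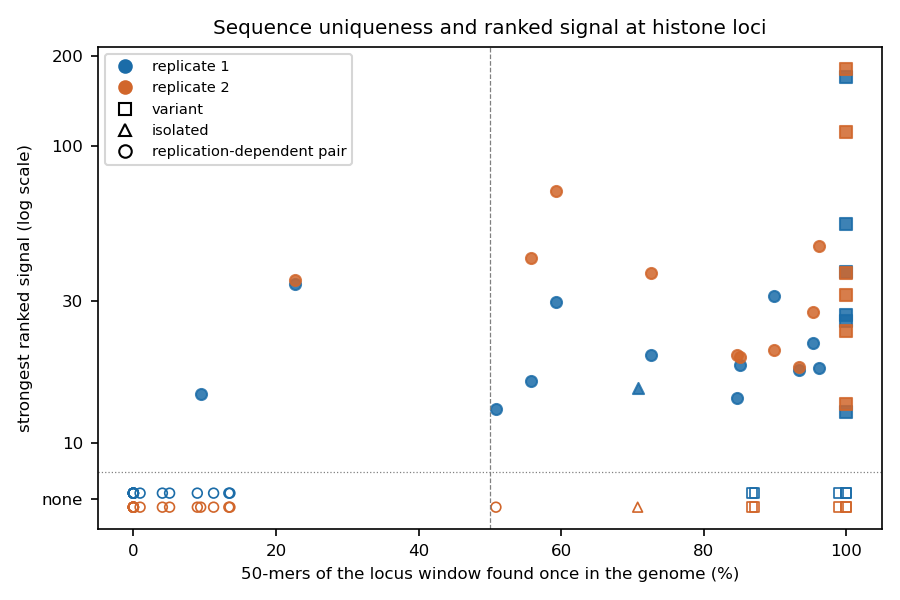
Share of 50-mers that occur once in the genome (x axis, percent) and signal of the strongest ranked summit (y axis, log scale) at each histone locus, with 1 point per replicate and open points at the bottom where no summit was ranked. Left of the dashed line at 50%, 18 of 20 loci have no ranked summit in either replicate, and right of it every replication-dependent pair has one in replicate 1. The line was placed after the data had been seen, and the share of all protein-coding loci with no summit was not counted.

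Split by uniqueness, with the 50% limit chosen after the data had been seen, 20 histone loci had under 50% unique 50-mers. All were replication-dependent clusters. A ranked summit was found in both replicates at 1 of these 20 (5%, 0.888% to 23.6%), which was his-17/his-18. Over all protein-coding loci in that class it was 8 of 364 (2.2%). A conservative summit was found at 1 of the 20, against 2 of 364 loci in the class (0.549%). These background counts are small and include histone loci. Of the 10 histone loci with 50% to under 90%, 6 had a ranked summit in both (60%, 31.3% to 83.2%), against 14.9%. Of the 12 with 90% or more, 9 had one (75%, 46.8% to 91.1%), against 21.3%, and 3 had a conservative summit (25%, 8.89% to 53.2%), against 3.06%. Among all loci of 2 genes with 90% or more unique 50-mers, 33.5% had a ranked summit in both replicates. The low share of ranked summits in the first class thus has an interval that holds the background for sequence of that kind. The part that uniqueness played in this share was not tested.

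**Figure D3:**
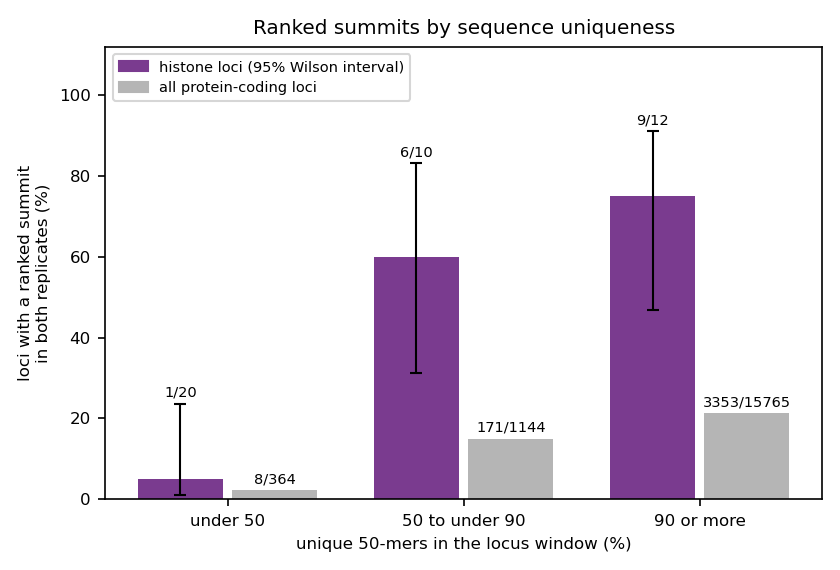
Share of loci with a ranked summit in both replicates (y axis, percent), in 3 classes of sequence uniqueness (x axis), for histone loci with 95% Wilson intervals and for all protein-coding loci. Numbers over the bars give loci with a summit over loci in the class, from 1 of 20 to 9 of 12 for histone loci.

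With at least 50% unique 50-mers, a limit chosen after the data had been seen, 10 replication-dependent clusters remained. The shares above this limit therefore describe the loci and test nothing. Replicate 1 had a ranked summit at 10 of these 10 (72.2% to 100%), against 37.3% of all loci above this limit. Both replicates had one at 9 of 10 (90%, 59.6% to 98.2%), against 20.8%. All 10 were loci of 2 genes, and the share over all 2-gene loci with 90% or more unique 50-mers was 33.5%. The exception was the H2A with H2B pair his-7/his-8, with 50.9% unique 50-mers. By type, all 6 of the H3 with H4 pairs above this limit had a ranked summit in both replicates, as did 2 of 3 H2A with H2B pairs. Without the limit, 7 of 14 H3 with H4 pairs (26.8% to 73.2%) and 2 of 15 H2A with H2B pairs (3.74% to 37.9%) had one. A conservative peak was found at 2 of 14 H3 with H4 pairs (14.3%, 4.01% to 39.9%) and at 0 of 15 H2A with H2B pairs (0% to 20.4%). The intervals overlap, but overlap is no test and copied pairs are not independent, so a difference between the types was not tested.

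The arrays differed in how many summits they held. Joining starts within 3000 bp gave 9 arrays of at least 4 histone genes. The 4-gene array his-59 to his-62 on chromosome IV had 93.7% unique 50-mers and 3 ranked summits in each replicate over 3.03 kb, or 0.989 per kb. The 4-gene array his-1 to his-4 on chromosome V had 82.1% and 2 summits in each replicate over 3.01 kb. Over all nuclear chromosomes, at 93.5% unique, there were 0.316 summits per kb in replicate 1 and 0.284 in replicate 2. These rates also cover sequence far from gene starts, unlike the arrays, and each array rate rests on few summits. The 6-gene array his-29 to his-34 on chromosome IV, at 49.8% unique over 5.56 kb, had 2 summits in each replicate, or 0.36 per kb, above the chromosomes as a whole. The 5-gene array his-5 to his-8 with his-39, at 71.3% unique over 4.43 kb, had 3 summits in replicate 1 (0.678 per kb) and 1 in replicate 2 (0.226 per kb), the second below the chromosomes as a whole. In 3 arrays there was no ranked summit in either replicate. These were his-45 to his-48 (9.21% unique), his-55 to his-58 (6.98%) and his-49 to his-54 (0%). The 13-gene array on chromosome II, at 12.9% unique over 11.6 kb, had 3 summits in replicate 1 and 0 in replicate 2. In the 8-gene array with his-17/his-18, at 2.97% unique over 9.43 kb, the summit at its edge was the only one in each replicate.

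**Figure D4:**
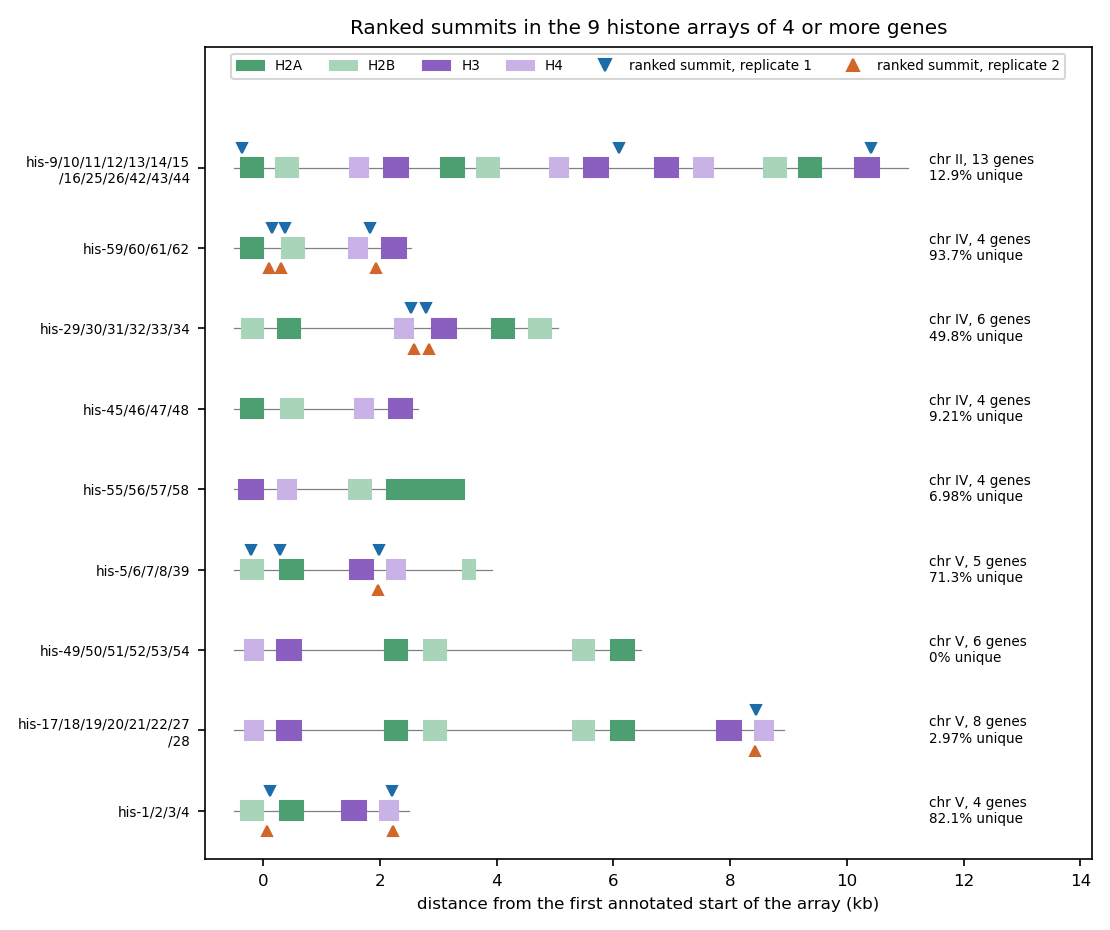
Genes (boxes, coloured by type) and ranked summits (triangles above the line for replicate 1 and below it for replicate 2) in the 9 arrays, by distance from the first annotated start (x axis, kb). The array his-59 to his-62 has 3 summits in each replicate, and 3 arrays have none.

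The words in the printed promoters were counted across the genome on both strands, as a description of letters and not of binding sites. The word CCCCGCAG was in the 250 bp upstream of 24 of 61 core histone genes (39.3%) and 2 of 12 variants, his-24 and his-37, against 0.24% of all 19973 protein-coding genes. Of the 48 genes with it, 26 were histone genes and 22 were others. By locus it was at 14 of 42 histone loci, 12 of them replication-dependent pairs, of 35 loci in the genome. The word was picked because his-37 and his-5/his-6 share it, within a common run of 14 bases, although the sequences around it were 47.5% identical. Paired genes share their upstream bases and copies repeat them, so these counts are not independent.

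The word was not at every peak. It lay wholly within 100 bp of the conservative summit at his-37, centred 10.5 bp from it, and at his-5/his-6, at 60.5 bp. At his-17/his-18 it was centred 97.5 bp from the summit, with 1 base outside this window, so that locus was not counted. It was not found within 150 bp of the summits at htz-1 and his-35/his-41. Over all 1346 conservative summits it was wholly within 100 bp of 7 (0.52%), of which 5 were not at histone loci. Among the 10 replication-dependent pairs with at least 50% unique 50-mers, 6 had the word and 4 did not. The 6 with it had signals of 17.9 to 31.2 in replicate 1, against 13.1 to 17.6 in the 4 without it. In replicate 2 the 6 had 19.4 to 70.8, against 18 to 42 in the 3 without it that had a summit. In replicate 1 the groups were parted only by 17.9 against 17.6, and in replicate 2 they overlapped. The word was chosen from these peaks, and his-5/his-6, from which it was picked, is among the 6. The split therefore cannot test whether the word goes with signal.

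The word TATAAA, the core of the TATA box, was upstream of 41 of 61 core genes (67.2%) and 6 of 12 variants, against 35.2% of all protein-coding genes. By locus it was at 28 of 42 histone loci, against 37.5% of all protein-coding loci. It was within 100 bp of 4 of 5 histone summits, against 12.4% of all conservative summits, and htz-1 was the one without it. TATAAA was picked after these sequences had been seen. The pairs his-5/his-6 and his-17/his-18 were also 94.9% identical between their starts, so the 4 of 5 tests nothing. At his-37 it was centred 32.5 bp from the summit. The words GAGAGA and ACGCAG were counted too, and ACGCAG shares the letters CGCAG with CCCCGCAG. GAGAGA was within 100 bp of 3 of 5 histone summits, against 37.7% of all, and ACGCAG was near 0 of 5, against 22.6%. GAGAGA was upstream of 21 of 31 core H2A and H2B genes and of 9 of 30 core H3 and H4 genes, against 19.1% of all genes. ACGCAG was upstream of 10 of 61 core genes and 0 of 12 variants, against 7.23% of all genes.

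Genes that handle histones were listed beside the members, namely the H1-like, CENP-A and other variant genes outside the naming rule, the chaperones and the stem-loop binding protein. Of 28 listed, 2 had a conservative summit in reach (7.14%, 1.98% to 22.6%) and 9 had a ranked summit in both replicates (32.1%, 17.9% to 50.7%), shares whose intervals hold the background of all protein-coding genes and loci given above. The peak at unc-85, which encodes the histone chaperone ASF1, spanned chrII:4701624-4701864, 330 bp from the start, with a signal of 491.5 (rank 19). Replicate 1 gave 191.8 there and replicate 2 gave 303.1. The peak at lin-53, which encodes an RbAp-type histone-binding protein, spanned chrI:9619954-9620055, with a signal of 198.1 (rank 142). Replicate 1 gave 122.4 and replicate 2 gave 74.52. Both peaks were in the thresholded lists of both replicates. Other genes near these 2 summits were not looked for here, so neither peak can be assigned to the named gene alone. The stem-loop binding protein gene cdl-1 had a ranked summit in replicate 2 alone, at 16.33.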

How the data were processed

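The data were peak lists from 2 biological replicates. The authors' deposited signal is the caller's value per peak, and the deposited IDR score runs up to 1000, higher where the IDR is lower. Per the labels and the text deposited with the lists, peaks were ranked from filtered alignments to ce11. The aligner, the peak caller and any filter on repeated reads were not given in the sources used here. Conservative peaks came from both replicates together, and each replicate also had its own ranked and thresholded lists. Of 2 joint ranked lists, the one used held 67.7% and 65.8% of its member intervals in the lists of replicates 1 and 2. At the threshold, 31 joint, 23 replicate 1 and 17 replicate 2 ranked peaks were missing from the thresholded lists, with 0 histone genes in their reach.

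Starts, names and proteins came from Ensembl release 115 (WBcel235). Ensembl gives several copies one name, so 73 of 73 genes were given their RefSeq symbols by coordinates. A 50-mer was unique if it occurred once in the genome on either strand. Counting was checked on simulated lists, with Python 3.11.15, numpy 2.4.6 and pandas 2.3.3. No enrichment was tested. The members and lists were chosen with earlier results of these data known. Loci with a conservative peak were named, and others only where stated.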

Additional observations from a re-analysis of the deposited data

How the results depend on the processing

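Of 42 alternatives, 35 left a count within 1.5 times its value. With conservative peaks at or above the list's median signal, 4 of 73 histone genes, 3 of 42 loci and 1 of 30 replication-dependent clusters had a peak, against 8, 5 and 2 in the report. Each replicate's own thresholded list gave 2 to 6 genes, 2 to 4 loci and 0 to 2 replication-dependent clusters, the lowest from replicate 1 alone. Replicate 2 alone gave his-67/his-68 in place of his-17/his-18. Restricting to loci with at least 50% unique 50-mers, a choice made after seeing the data, left 1 replication-dependent cluster of 10, because his-17/his-18 was removed. The isolated and variant count stayed at 2 or 3, and the loci ranked in both replicates at 13 to 20. These are counts, and shares moved further where the number of loci changed. The share ranked in both was 38.1% of 42 loci in the report. It was 61.9% of 21 with starts joined within 3000 bp, and 68.2% of 22 with the 50% uniqueness limit. A 250 bp window lost htz-1. No paired analysis was possible because the series has 1 group. Depth is unknown, so a missing summit does not show that binding was absent.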
